A study of Mus musculus with 12 samples.

Results

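The comparison set macrophages kept at low oxygen without added lactate against macrophages given lactate at normal oxygen, and asked which transcripts go with oxygen and which with lactate. Hypoxia-NaCl libraries 1 to 3 came from cells at 1% oxygen with 25 mM NaCl, and normoxia-lactate libraries 1 to 3 from cells in normoxia with 25 mM sodium lactate. They were chosen by these labels and make up 6 of the 12 libraries of the study. All 37620 Ensembl gene identifiers of the count table were carried, of which 14602 had enough reads in the 6 libraries to be tested. All cells were bone marrow-derived macrophages of C57BL/6 mice, in primary culture at day 7, with no genetic change given in the labels. The other groups were hypoxia-lactate (1% oxygen, 25 mM sodium lactate) and normoxia-NaCl (normoxia, 25 mM NaCl), with 3 libraries each. NaCl at the same molarity was thus present wherever lactate was not, and no group was without an added sodium salt. Polyadenylated RNA was sequenced on an Ion Proton instrument. Whether the libraries of a condition stand for different animals or dishes is not stated, so the p-values measure the spread between these libraries only, which may be technical.

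Cells sense oxygen through prolyl hydroxylases, which use it to mark the alpha subunits of the hypoxia-inducible factors (HIF) for destruction. When oxygen is scarce the subunits escape, pair with ARNT and bind short hypoxia response elements near genes for glycolysis, lactate export, vessel growth and the hydroxylases themselves. Lactate, the end product of glycolysis, accumulates together with low oxygen in tumours, where macrophages meet both, and it is known to act on macrophage gene expression as well. In the compared groups the oxygen level and the salt change together, so a gene that differs between them may follow either. The pair of groups left over, hypoxia-lactate against normoxia-NaCl, shares no library with the first. In it the oxygen contrast runs the same way and the lactate contrast the opposite way. A gene that follows oxygen alone then has the same sign in both comparisons, and a gene that follows lactate alone has opposite signs.

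The 6 libraries held 29967440 to 49885085 reads on genes, 13883 to 14767 genes with at least 10 reads, and 2.31% to 3.51% of gene reads on mitochondrially encoded genes. That share was 2.31% to 2.42% in hypoxia-NaCl and 2.45% to 3.51% in normoxia-lactate libraries. The labelled cell type was borne out by its markers. All 10 macrophage markers were detected, and their summed level was 34700 to 47400 CPM (reads scaled to library size) in hypoxia-NaCl and 43300 to 49700 CPM in normoxia-lactate libraries. Of the 10, 0 passed the test without the block (the library number, described below) and 1 was higher with it. In the second comparison 1 was lower without the block. Markers of other cells were low and overlapped between the groups for 9 neutrophil genes (1.45 to 29.5 CPM against 1.46 to 30.5 CPM, Ly6g at 0 in hypoxia-NaCl) and 6 fibroblast genes (25.2 to 100 CPM against 34.8 to 78.4 CPM, Lum at 0 in both). The 6 osteoclast genes, some of which macrophages share, summed to 165 to 234 CPM in hypoxia-NaCl and 136 to 217 CPM in normoxia-lactate, with 0 past the test without the block and Ctsk with it. In the second comparison they summed to 288 to 695 CPM in hypoxia-lactate and 92.7 to 156 CPM in normoxia-NaCl, where Ctsk rose (log2 fold change 1.87 ± 0.23); their part in other results was not tested. In the second comparison hypoxia-lactate 3 stood apart, with 11437 genes detected at 10 reads, 0.486% mitochondrial reads and a median rank correlation with the other libraries of 0.871, against 0.974 to 0.984 for the 6 libraries compared here. It was left out of the second comparison, and counts with it are given beside those without. With it kept in, Egln3 remained called there (edgeR adjusted p = 0.00139). Slc16a3, Ctsk, Cx3cr1, Lrrc27, Mrc1 and Spp1, called without it, kept their signs but did not pass (adjusted p from 0.0752 to 0.347). Normoxia-NaCl 1, which was kept there, also lay outside the range of the 6 libraries, with 13198 genes detected, 4.75% mitochondrial reads, 18.4% of reads aligned to several places and a median rank correlation of 0.956. In bulk RNA, fewer cells of a type and less RNA per cell cannot be told apart.

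The genes with the largest rises with a mean of at least 5 CPM were Egln3, Ankrd37, Ak4 and Bnip3, and their promoters are shown because each is a known HIF target in mouse or human cells. Each window runs from 250 bases before to 50 bases after a transcription start listed by RefSeq on build GRCm38.p6. They lie at chr12:54203825-54204124 (minus strand), chr8:45999801-46000100 (minus strand), chr4:101419039-101419338 (plus strand, the most upstream of 4 listed starts) and chr7:138909457-138909756 (minus strand). Capitals mark ACGTG or GCGTG, the core letters of a hypoxia response element, on either strand.
Egln3: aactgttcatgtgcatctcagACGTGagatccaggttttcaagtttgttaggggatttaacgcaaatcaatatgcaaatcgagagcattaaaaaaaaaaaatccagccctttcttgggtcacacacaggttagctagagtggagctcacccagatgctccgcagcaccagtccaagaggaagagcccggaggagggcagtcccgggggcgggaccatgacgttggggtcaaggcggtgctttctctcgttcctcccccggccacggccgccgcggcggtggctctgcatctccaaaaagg
Ankrd37: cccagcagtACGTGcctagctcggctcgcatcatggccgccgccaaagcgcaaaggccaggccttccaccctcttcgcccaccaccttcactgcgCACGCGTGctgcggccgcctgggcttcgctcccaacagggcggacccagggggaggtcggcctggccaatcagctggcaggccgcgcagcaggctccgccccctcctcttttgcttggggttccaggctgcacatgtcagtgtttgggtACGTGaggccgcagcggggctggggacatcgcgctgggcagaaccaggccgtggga
Ak4: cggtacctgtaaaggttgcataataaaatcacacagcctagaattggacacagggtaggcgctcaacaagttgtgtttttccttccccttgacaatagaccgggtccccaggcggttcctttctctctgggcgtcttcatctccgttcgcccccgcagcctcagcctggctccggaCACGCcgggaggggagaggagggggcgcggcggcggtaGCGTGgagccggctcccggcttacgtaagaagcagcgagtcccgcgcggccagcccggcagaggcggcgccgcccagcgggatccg
Bnip3: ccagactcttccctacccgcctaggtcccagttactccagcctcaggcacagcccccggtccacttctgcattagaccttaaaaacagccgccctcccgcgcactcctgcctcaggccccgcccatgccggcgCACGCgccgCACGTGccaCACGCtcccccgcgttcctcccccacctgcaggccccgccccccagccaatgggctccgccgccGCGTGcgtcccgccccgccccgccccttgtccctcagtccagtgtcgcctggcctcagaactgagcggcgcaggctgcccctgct
The windows held 1, 4, 2 and 5 matches in that order, overlapping matches on the opposite strands counted separately. Such short motifs are common. At least 1 match stood in 43.8% of all 32851 RefSeq windows and in 61.3% of the 12524 windows of tested genes. It stood in 68 of 97 windows (70.1%) of genes that rose in hypoxia-NaCl and in 16 of 30 windows (53.3%) of genes that fell. ACGTG alone stood in 38.1% of windows of risen genes, 13.3% of windows of fallen genes and 25.2% of windows of tested genes. Of the risen genes with a symbol, 69 of 96 had a RefSeq window, and of the fallen genes 23 of 35. Base composition was not matched, and a match is a run of letters, not a bound site.

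Against normoxia-lactate, 99 genes rose in hypoxia-NaCl (0.678% of 14602 tested) and 35 fell (0.24%), 134 in all (0.918%), at an adjusted p under 0.05 in edgeR's quasi-likelihood test. The rises were also the larger changes: 65 of the 99 were at least 2-fold, with a median log2 fold change of 1.24, against 14 of the 35 falls and a median of -0.90. At an unadjusted p under 0.05 there were 2270 genes (15.5%). The libraries of the groups did not overlap for any of the 134 genes, a separation that 21.6% of all tested genes showed. Same-numbered libraries of the groups deviated together, so the library number was also used as a block. Then 633 genes rose (4.34%) and 600 fell (4.11%), 1233 in all (8.44%), with all 134 among them, and at least 2-fold changes numbered 156 rises and 86 falls. The near balance of directions with the block differed from the excess of rises without it. These shares over all tested genes are the background for the blocked counts of list members below. The count without the block leaned on normoxia-lactate 1: without that library 5 genes rose and 1 fell, namely Egln3, Ankrd37, Pdk1, Pfkfb3, Cytip and, lower, the pseudogene Tdpx-ps1.

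Targets of HIF outside glycolysis formed the group with the highest median. Of 30 tested members 16 rose, 0 fell and 14 did not pass, with a median log2 fold change of 1.15 beside 0.004 over all tested genes, and 21 rose with the block. Egln3, the prolyl hydroxylase PHD3, rose most among genes above 5 CPM. It had 101, 101 and 129 CPM in hypoxia-NaCl, against 5.56, 7.90 and 5.09 CPM in normoxia-lactate libraries. Every hypoxia-NaCl library was thus far above every normoxia-lactate library, with a log2 fold change of 4.16 ± 0.20 (SE; adjusted p = 1.65e-05). Egln1, the main HIF prolyl hydroxylase PHD2, averaged 151 ± 38.6 CPM in hypoxia-NaCl and 73.6 ± 4.62 CPM in normoxia-lactate (SD, n = 3 each), a log2 fold change of 1.04 ± 0.18 (adjusted p = 0.0308). Hif1a, which encodes the regulated subunit itself, gave overlapping values of 38.1, 43.6 and 36.0 CPM in hypoxia-NaCl and 40.3, 45.9 and 50.7 CPM in normoxia-lactate, and did not pass (log2 fold change -0.22 ± 0.13, adjusted p = 0.449). In the list of HIF subunits and sensors, 2 of 8 tested members passed, Egln3 and Egln1.

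Ankrd37, an ankyrin-repeat protein gene, had 66.1, 61.3 and 78.3 CPM in hypoxia-NaCl, against 3.83, 4.21 and 3.91 CPM in normoxia-lactate. The groups were far apart and the libraries of each lay close together (log2 fold change 4.10 ± 0.14, adjusted p = 1.93e-06). Ak4, a mitochondrial adenylate kinase, had 34.0, 19.8 and 45.8 CPM in hypoxia-NaCl, against 2.35, 0.869 and 2.67 CPM in normoxia-lactate. Library 2 was the lowest of its group in both conditions, and the groups did not overlap (log2 fold change 4.09 ± 0.42, adjusted p = 0.00449). Ak4 has a near-identical copy, so its reads are uncertain where the counting could split them. Bnip3, a receptor for the removal of mitochondria, had 52.9, 44.5 and 112 CPM in hypoxia-NaCl, against 9.18, 8.49 and 12.2 CPM in normoxia-lactate. Hypoxia-NaCl 3 was the highest and no hypoxia-NaCl library reached the normoxia-lactate range (log2 fold change 2.80 ± 0.33, adjusted p = 0.00679). Pdk1, the kinase that turns off pyruvate dehydrogenase, had 173, 137 and 218 CPM in hypoxia-NaCl, against 38.7, 44.8 and 35.1 CPM in normoxia-lactate (log2 fold change 2.16 ± 0.18, adjusted p = 0.00156). Further risen members, chosen after their values were seen, were Mif, Ndrg1 and Ero1l, with log2 fold changes of 1.49, 1.27 and 1.27.

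**Figure D1:**
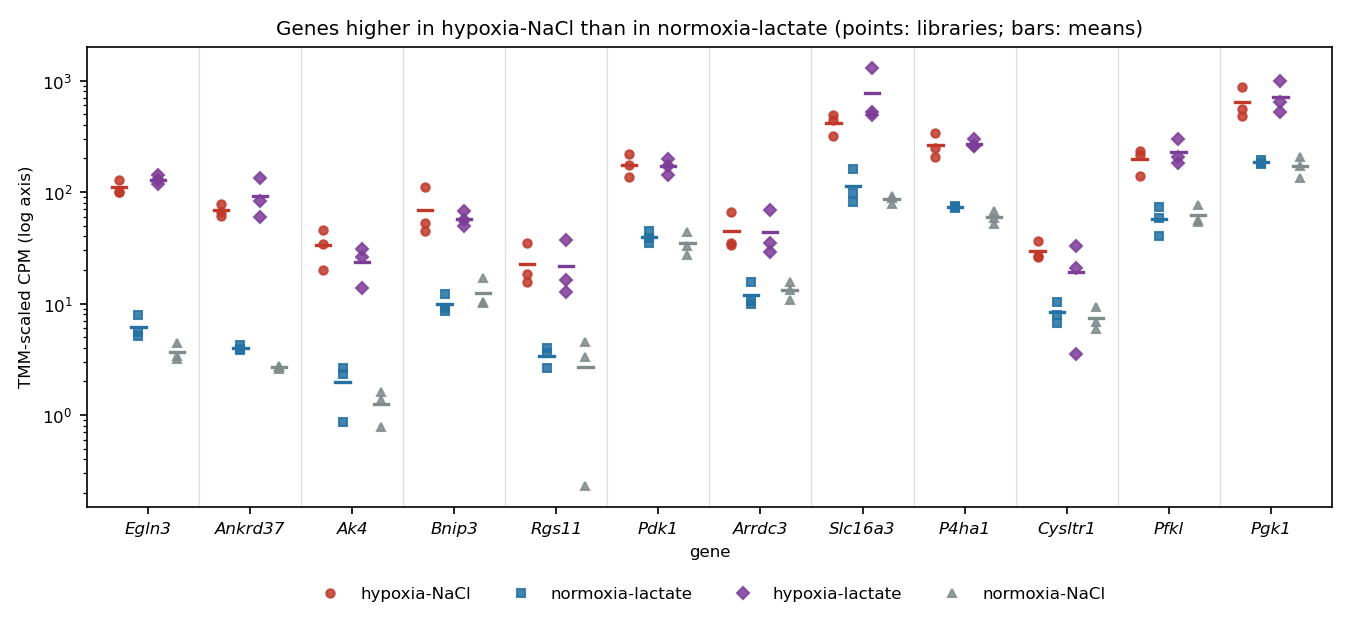
CPM (log axis) of the 12 largest rises in each library, by group, with means as bars; the 2 groups on the left of each gene are the ones compared. For Egln3 the hypoxia-NaCl points lie between 101 and 129 CPM and the normoxia-lactate points between 5.09 and 7.90 CPM.

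Enzymes of glucose uptake and glycolysis rose together: 11 of 21 tested members rose, 0 fell and 10 did not pass, with a median log2 fold change of 0.83 beside 0.004 over all genes. With the block 13 rose and 1 fell, the enolase Eno2. Along the pathway the glucose transporter Slc2a1 averaged 294 ± 68.3 CPM in hypoxia-NaCl and 101 ± 21.4 CPM in normoxia-lactate (SD, n = 3 each; log2 fold change 1.55 ± 0.20, adjusted p = 0.00981). Hexokinase 2, Hk2, rose by a log2 fold change of 1.10 ± 0.13, Pfkfb3, which makes the activator of phosphofructokinase, by 1.43 ± 0.12, and the phosphofructokinase subunit Pfkl by 1.78 ± 0.24. Pfkfb3 had 77.9, 87.6 and 92.0 CPM in hypoxia-NaCl, against 32.5, 28.9 and 34.4 CPM in normoxia-lactate, with tight and separate groups (adjusted p = 0.00156). Triose phosphate isomerase, Tpi1, had 895, 679 and 1056 CPM in hypoxia-NaCl, against 274, 344 and 252 CPM in normoxia-lactate (log2 fold change 1.59 ± 0.19, adjusted p = 0.00679). Phosphoglycerate kinase, Pgk1, had 485, 556 and 875 CPM in hypoxia-NaCl, against 180, 194 and 184 CPM in normoxia-lactate (log2 fold change 1.78 ± 0.21, adjusted p = 0.00679). For both genes all hypoxia-NaCl libraries stood above all normoxia-lactate libraries. Several of these enzymes have processed copies, and the copies Pgk1-rs7, Ldha-ps and Pgam1-ps2 were called higher too, with log2 fold changes of 1.65, 1.28 and 1.12, so values of Pgk1, Ldha, Pgam1, Tpi1, Eno1 and Gapdh are uncertain where reads could be split.

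Transcripts for lactate production and export, Ldha and Slc16a3, rose with those of glycolysis, in a comparison where the other cells had been given lactate. The list of lactate transport and interconversion had 2 of 13 tested members past the test, both higher in hypoxia-NaCl. Ldha, which turns pyruvate into lactate, had 1829, 1617 and 2043 CPM in hypoxia-NaCl, against 610, 845 and 606 CPM in normoxia-lactate (log2 fold change 1.41 ± 0.17, adjusted p = 0.0068). Slc16a3, the lactate exporter MCT4, had 444, 319 and 486 CPM in hypoxia-NaCl, against 98.7, 161 and 81.5 CPM in normoxia-lactate (log2 fold change 1.87 ± 0.25, adjusted p = 0.0118). In hypoxia-NaCl library 2 was the lowest for both genes, and in normoxia-lactate library 2 was the highest, which narrowed the gap in that pair. With the block Bsg, the partner protein of the transporter, and the proton-sensing receptors Gpr65 and Gpr132 were also called higher, and the mitochondrial pyruvate carrier subunit Mpc1 lower. The list's median log2 fold change was 0.26.

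Some other oxygen-using enzymes and the growth factor Vegfa rose as well. The collagen prolyl hydroxylase subunits P4ha1 and P4ha2 rose, with 250, 205 and 341 CPM of P4ha1 in hypoxia-NaCl against 73.6, 74.5 and 71.6 CPM in normoxia-lactate. The log2 fold changes were 1.86 ± 0.18 for P4ha1 (adjusted p = 0.00413) and 1.53 ± 0.20 for P4ha2 (adjusted p = 0.01). They were the 2 called members of 21 tested in the list of collagen hydroxylases and matrix proteases. Vegfa, the main vessel growth factor, had 181, 201 and 221 CPM in hypoxia-NaCl, against 72.5, 93.2 and 52.5 CPM in normoxia-lactate (log2 fold change 1.47 ± 0.19, adjusted p = 0.0105). It was the 1 called member of 16 tested angiogenic and secreted growth factors, of which 8 were positive and 8 negative. Among 19 tested histone demethylases and other oxygen-dependent dioxygenases, the H3K9 demethylase Kdm3a (log2 fold change 1.54 ± 0.17, adjusted p = 0.00601) and the RNA demethylase Alkbh5 (0.82 ± 0.11, adjusted p = 0.0126) rose, and 17 of the 19 were positive.

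Rises also included genes outside those lists. Rgs11, a regulator of G protein signalling, had 15.5, 18.4 and 34.6 CPM in hypoxia-NaCl, against 3.62, 3.97 and 2.62 CPM in normoxia-lactate (log2 fold change 2.74 ± 0.31, adjusted p = 0.00631). The leukotriene receptor Cysltr1 averaged 29.6 ± 6.03 CPM in hypoxia-NaCl and 8.34 ± 1.89 CPM in normoxia-lactate (SD, n = 3 each; log2 fold change 1.83 ± 0.20, adjusted p = 0.00601). The arrestin-domain gene Arrdc3 averaged 44.6 ± 18.1 CPM in hypoxia-NaCl and 12 ± 3.02 CPM in normoxia-lactate (log2 fold change 1.90 ± 0.28, adjusted p = 0.0167). Some genes of immune signalling rose too. Tnfaip3, the NF-kappaB inhibitor A20, was the 1 called member of 20 tested pro-inflammatory genes, with 27.5, 26.1 and 24.6 CPM in hypoxia-NaCl against 15.4, 15.7 and 14.6 CPM in normoxia-lactate (log2 fold change 0.77 ± 0.12, adjusted p = 0.0226). Il15, a lymphocyte growth factor, and Cytip, a regulator of cell adhesion, both chosen after their values were seen, rose by log2 fold changes of 1.19 ± 0.14 and 1.31 ± 0.13.

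Most of the rises had the same sign in the libraries that played no part in calling them. In hypoxia-lactate 1 and 2 against normoxia-NaCl 1 to 3, 148 of 14143 genes rose (1.05%) and 49 fell (0.346%), 197 in all (1.39%). Of the 99 genes that rose in hypoxia-NaCl, 97 could be tested there: 47 rose, 0 fell and 50 were not called, against 1.05% risen and 0.351% fallen among the 13975 genes tested in both. The sign was positive for 91 and negative for 6, and the median log2 fold change of the 97 was 1.26, beside -0.006 over all genes tested in both. With hypoxia-lactate 3 kept in, 12 genes rose (0.088%) and 0 fell, and 7 of 96 of the risen genes were called, while their median was 1.41. Without normoxia-NaCl 1 there were 313 rises and 148 falls in the second comparison and 66 genes risen in both, and without normoxia-NaCl 3 there were 59 rises, 16 falls and 20 genes risen in both. With the block in both comparisons the second had 500 rises (3.54%) and 495 falls (3.5%), 995 in all (7.04%), though there the numbers were not shown to pair the libraries. Normoxia-NaCl 3 had no same-numbered partner in that fit. Blocked fold changes of the second comparison thus rest only on hypoxia-lactate 1 and 2 and their partners. Of 624 genes that rose with the block in the first, 168 then rose and 25 fell in the second, and of 597 that fell, 67 fell and 12 rose. Egln3 had 127, 142 and 118 CPM in hypoxia-lactate, against 3.15, 4.42 and 3.40 CPM in normoxia-NaCl, and its log2 fold change was 5.20 ± 0.22 (adjusted p = 7e-05). The 3 hypoxia-lactate values, including the library left out of the test, lay together and far above normoxia-NaCl. Slc16a3 had 521, 494 and 1298 CPM in hypoxia-lactate, against 92.5, 88.0 and 77.8 CPM in normoxia-NaCl (log2 fold change 2.56 ± 0.19, adjusted p = 0.00125). That test left out hypoxia-lactate 3, and with it Slc16a3 did not pass (log2 fold change 3.16, edgeR adjusted p = 0.0752). Of the HIF targets 15 of 30 and of the glycolysis genes 8 of 21 rose in this comparison, with median log2 fold changes of 1.14 and 0.83. With hypoxia-lactate 3 kept in, 6 and 0 were called, at medians of 1.67 and 1.34, and without normoxia-NaCl 1, 18 and 13 were called, at medians of 1.17 and 1.04. Some enzymes called in the first comparison missed the threshold in the second: Ldha had a log2 fold change of 1.38 ± 0.27 (adjusted p = 0.0542), and Gapdh had -0.06 ± 0.40 (adjusted p = 0.951) against 0.83 ± 0.15 (adjusted p = 0.0462) in the first. Gapdh had 860, 999 and 2432 CPM in hypoxia-lactate, against 1567, 775 and 574 CPM in normoxia-NaCl. Without normoxia-NaCl 1, the highest of its group, its log2 fold change was 0.46 ± 0.19, and with all 6 libraries it was 0.56 ± 0.52, neither of them called.

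**Figure D2:**
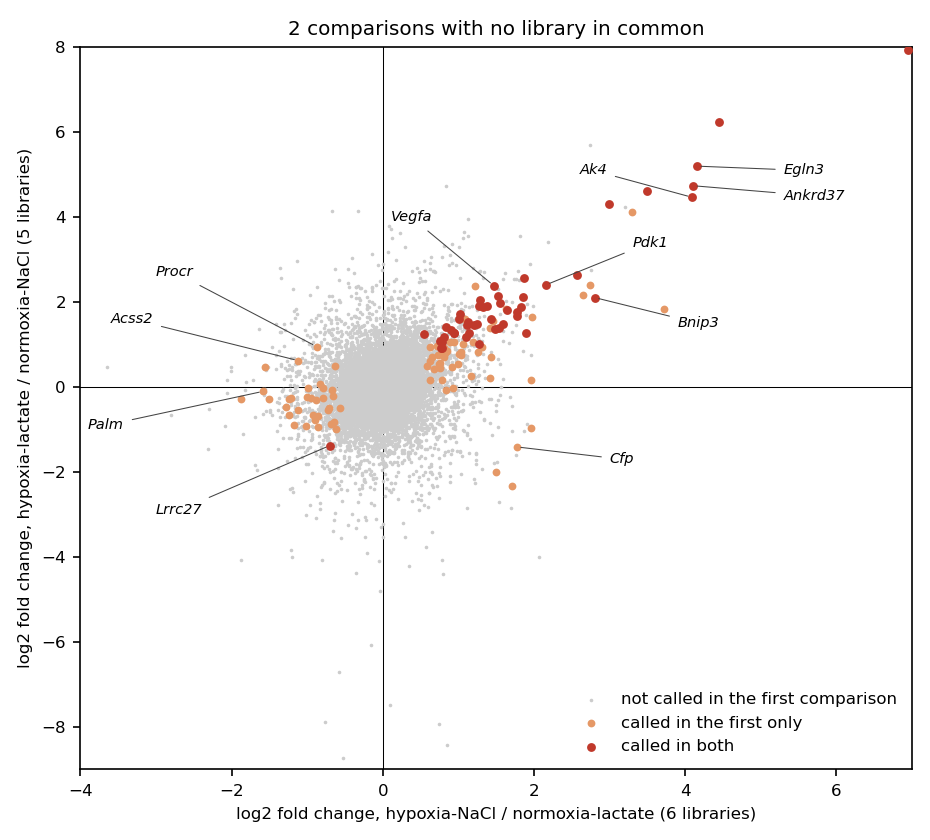
Log2 fold changes of 13975 genes in hypoxia-NaCl against normoxia-lactate (horizontal axis) and in hypoxia-lactate against normoxia-NaCl without hypoxia-lactate 3 (vertical axis); colours mark the 131 genes called in the first comparison and the 48 of them called in both. The upper right quadrant holds 47 of the 48, and the remaining gene, Lrrc27, lies in the lower left.

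The falls were smaller and fewer had a counterpart in the other libraries. Of 34 fallen genes tested in the second comparison, 0 rose, 1 fell and 33 were not called, with 29 negative and 5 positive signs and a median log2 fold change of -0.30. The gene that fell in both was Lrrc27, a leucine-rich repeat gene, with 22.8, 23.9 and 24.1 CPM in hypoxia-NaCl against 42.0, 33.4 and 39.6 CPM in normoxia-lactate (log2 fold change -0.70 ± 0.12, adjusted p = 0.0369). In the second comparison its log2 fold change was -1.38 ± 0.20 (adjusted p = 0.0169). The largest fall above 5 CPM was that of Palm, a protein of the plasma membrane, with 4.99, 6.11 and 3.79 CPM in hypoxia-NaCl against 10.4, 20.8 and 13.4 CPM in normoxia-lactate (log2 fold change -1.58 ± 0.28, adjusted p = 0.0346). Rnf157, a ubiquitin ligase, averaged 19.2 ± 4.86 CPM in hypoxia-NaCl and 46.8 ± 4.28 CPM in normoxia-lactate (SD, n = 3 each; log2 fold change -1.28 ± 0.18, adjusted p = 0.0144). Serpinb6b, Tmem9, Plppr2 and Fam234b fell by 1.25, 1.24, 1.22 and 1.02 on the log2 scale. Tmem9 encodes a lysosomal membrane protein and Serpinb6b a protease inhibitor.

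Several of the named falls have known roles in lipid handling, cell survival and recognition. Acss2, which makes acetyl-CoA from acetate, had 15.4, 16.1 and 12.4 CPM in hypoxia-NaCl, against 27.8, 34.0 and 33.4 CPM in normoxia-lactate (log2 fold change -1.12 ± 0.15, adjusted p = 0.0105). Its sign was opposite in the second comparison, with 26.4, 29.4 and 40.6 CPM in hypoxia-lactate and 17.0, 19.5 and 18.1 CPM in normoxia-NaCl, but this was not called (log2 fold change 0.62 ± 0.19, adjusted p = 0.163). Both lactate groups were thus above both NaCl groups in every library. Idi1, an enzyme of cholesterol synthesis, averaged 8.80 ± 1.90 CPM in hypoxia-NaCl and 17.0 ± 1.21 CPM in normoxia-lactate (log2 fold change -0.95 ± 0.18, adjusted p = 0.0462). Bcl2l1, which encodes the survival protein BCL-XL, fell by 0.90 on the log2 scale, Clec4n, the fungal receptor dectin-2, by 0.99, Bace1, a membrane protease, by 1.01, and Man2a2, a mannosidase of the Golgi, by 0.88. Bst2, the antiviral protein tetherin, was the 1 called member of 26 tested interferon-stimulated genes without the block and fell by 0.62 on the log2 scale (adjusted p = 0.0439). With the block 3 of the 26 rose, Gbp3, Gbp2 and Oas2, with log2 fold changes of 1.36, 1.10 and 0.45, and Bst2 remained the 1 that fell. Over all tested genes 4.34% rose and 4.11% fell with the block.

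**Figure D3:**
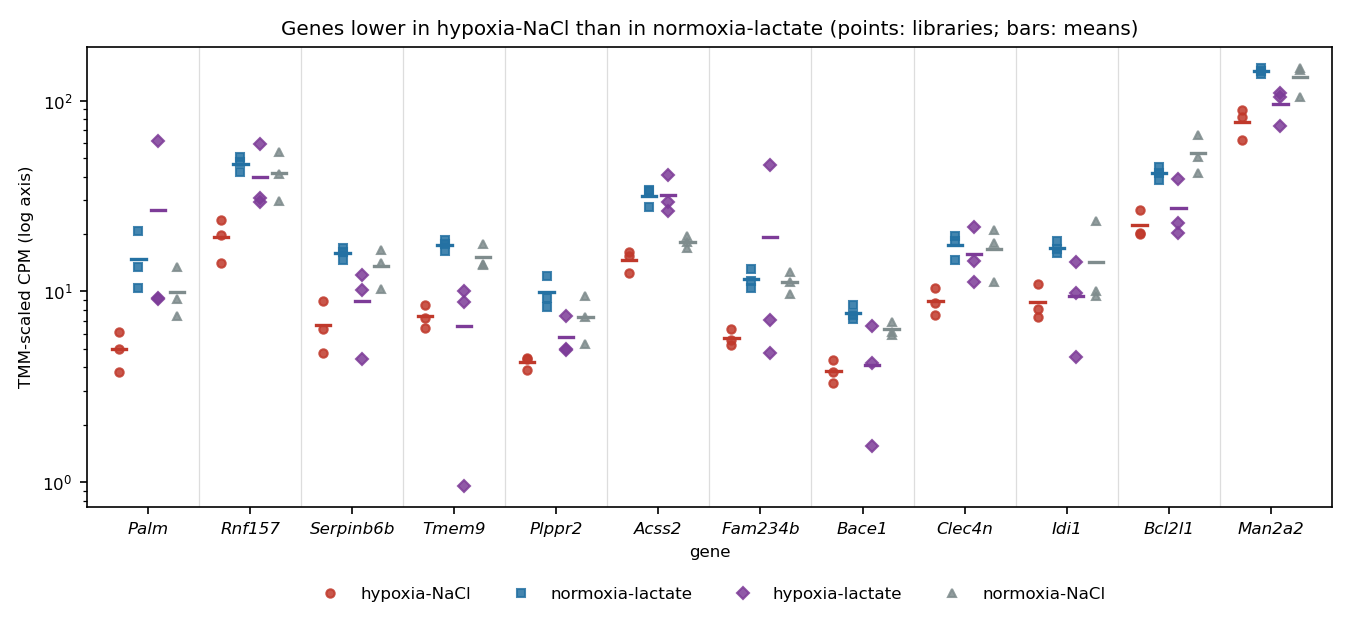
CPM (log axis) of the 12 largest falls in each library, by group, with means as bars. For Acss2 the hypoxia-NaCl points lie between 12.4 and 16.1 CPM and the normoxia-lactate points between 27.8 and 34.0 CPM.

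Pathways with small shared shifts came past the threshold mainly when library numbers were blocked, where 4.34% of all tested genes rose and 4.11% fell. In cholesterol synthesis and uptake 21 of 22 tested members were lower in hypoxia-NaCl than in normoxia-lactate, with a median log2 fold change of -0.47. Without the block 1 fell (Idi1), and with it 14 fell and 0 rose, including Mvk, mevalonate kinase, and Fdft1, squalene synthase. Mvd, a decarboxylase of the pathway, had 29.5, 32.6 and 15.2 CPM in hypoxia-NaCl, against 40.7, 59.9 and 34.0 CPM in normoxia-lactate, each hypoxia-NaCl value lying below its same-numbered partner. Of the 22, 0 were called in the second comparison and the median was -0.41. Antioxidant targets of NRF2 had 15 of 18 members negative and a median of -0.42, and 0 passed without the block and 8 fell with it. In the second comparison their median had the opposite sign, 0.12, with 1 of the 18 fallen and 0 risen without the block. Nqo1, a quinone reductase of that list, had 42.0, 82.4 and 26.8 CPM in hypoxia-NaCl, against 97.1, 176 and 90.8 CPM in normoxia-lactate (log2 fold change with the block -1.35). The groups were separate within each number, and library 2 was the highest of both. The ferritin light chain gene Ftl1 was lower by 0.99 without passing (adjusted p = 0.105), while its copy Ftl2-ps was called lower (log2 fold change -0.92 ± 0.13, adjusted p = 0.0118), so the reads of these are uncertain.

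Mitochondrially encoded transcripts were lower, while the lists of the tricarboxylic acid cycle and the nuclear-encoded respiratory chain moved little. All 13 mitochondrially encoded genes were lower in hypoxia-NaCl, with a median log2 fold change of -0.33, and 0 passed without the block and 4 with it. Their median in the second comparison was -0.28, with 0 called without the block. Of 25 genes of the tricarboxylic acid cycle and of 27 nuclear-encoded genes of the respiratory chain, 0 passed with or without the block, with medians of -0.09 and -0.11. Targets of ATF4, the amino acid stress factor, had 0 calls without the block and 7 falls and 1 rise with it among 23. Over all tested genes 4.11% fell and 4.34% rose with the block.

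Immune and growth genes made a similar picture of block-dependent calls, to be read against the 4.34% of all tested genes that rose and the 4.11% that fell with the block. Of 12 tested chemokine receptors 0 passed without the block, and with it 6 rose, with a median log2 fold change of 0.52. Cx3cr1, the fractalkine receptor, had 220, 197 and 132 CPM in hypoxia-NaCl, against 91.1, 122 and 85.8 CPM in normoxia-lactate, and the groups did not overlap (log2 fold change 0.88 ± 0.20, adjusted p = 0.0839). It rose in the second comparison (log2 fold change 1.79 ± 0.25, adjusted p = 0.017). Of 12 genes of MHC class II presentation 0 passed without the block and 5 rose and 1 fell with it. Their median log2 fold change was 0.34 in the first comparison and -0.36 in the second, where 0 passed without the block. Cd74, the invariant chain, had 4279, 1092 and 3363 CPM in hypoxia-NaCl, against 2325, 594 and 1995 CPM in normoxia-lactate. The number 2 libraries were the lowest of both groups, and each hypoxia-NaCl value was above its same-numbered partner. Among 30 cell cycle genes 0 passed without the block, and 6 rose and 1 fell with it. Without the block the second comparison called 0 of these 30, and their median was -0.81, opposite in sign to 0.17 in the first. With the block in both, some cell cycle genes, chosen after their values were seen, had opposite calls. Kif23 (log2 fold changes 0.69 and -0.91), Prc1 (0.62 and -0.97) and Top2a (0.40 and -1.13) rose in the first and fell in the second. With hypoxia-lactate 3 kept in and no block, Kif23 changed sign in the second (log2 fold change 0.66, against -0.73 without that library). Prc1 (-1.34) and Top2a (-0.76) kept theirs, and none of the genes was called there. Bub1 rose in the first only, and Mcm2 fell in both. Of the lists not described so far, LXR targets (12 tested), endoplasmic reticulum chaperones (19), cytosolic heat shock (13), lysosome (27), immediate early genes (19) and solute and ion handling (16) each had 0 members past the test without the block. With it 3 immediate early genes rose and 4 fell, 2 LXR targets rose and 1 fell, 3 lysosome genes fell and 1 endoplasmic reticulum gene rose, and 0 passed in the other two.

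**Figure D4:**
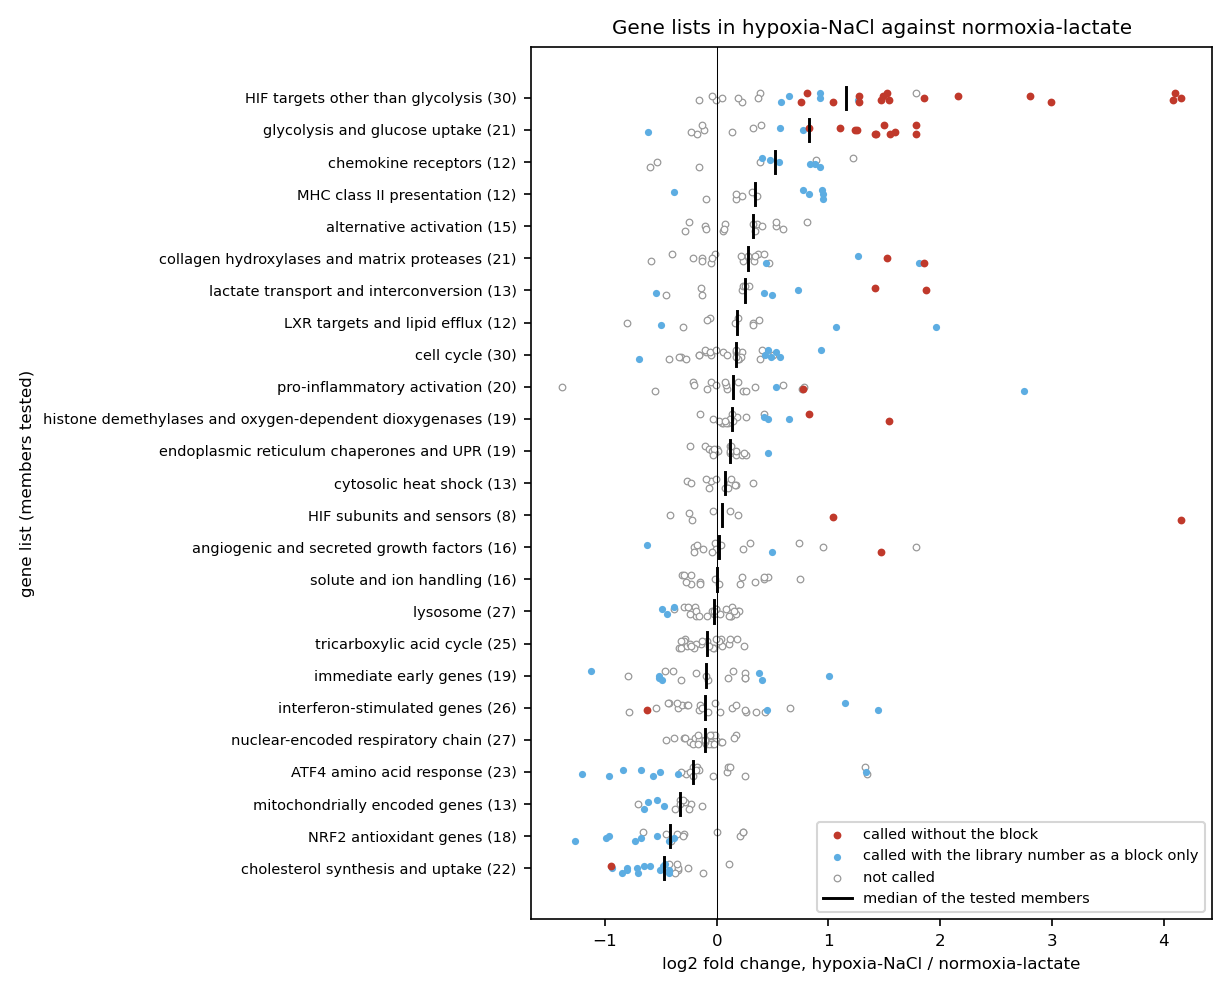
Log2 fold changes of the tested members of 25 gene lists in hypoxia-NaCl against normoxia-lactate, with medians as bars; red points were called without the block, blue points with it only. The medians run from 1.15 for HIF targets to -0.47 for cholesterol synthesis.

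Genes with opposite signs in the comparisons, the pattern of a difference that follows lactate, were rare among the calls. Without the block 0 genes were called in both with opposite signs. With the block in the first comparison only, 2 of 624 risen genes fell in the second (Ms4a7 and Cd33, background 0.351%). Of 597 fallen genes 5 rose (Spp1, Serpinb9, Serpinb9b, Ets2 and Dusp4, background 1.05%). Both shares were near the background. With hypoxia-lactate 3 kept in, the genes just named kept their signs in the second but none passed (edgeR adjusted p from 0.12 for Cd33 to 0.4 for Serpinb9). With the block in both, where the pairing was not established in the second, 25 of the 624 fell and 12 of the 597 rose. Blocked values of the second comparison, here and for the genes below, rest only on hypoxia-lactate 1 and 2 and their same-numbered partners. Normoxia-NaCl 3 had no partner and did not inform them. Over all 14143 genes tested in the second with the block, 3.5% fell and 3.54% rose. Cfp, properdin of the complement system, chosen after its values were seen, had 80.9, 106 and 134 CPM in hypoxia-NaCl, against 25.6, 49.7 and 18.8 CPM in normoxia-lactate (log2 fold change 1.77 ± 0.33, adjusted p = 0.0436). It had 25.4, 52.3 and 39.7 CPM in hypoxia-lactate, against 130, 112 and 68.8 CPM in normoxia-NaCl. This was not called without the block (log2 fold change -1.42 ± 0.37, adjusted p = 0.116) and was called with it (-1.72, edgeR adjusted p = 3.46e-05). All 6 lactate libraries were below all 6 NaCl libraries. Procr, the endothelial protein C receptor, showed the mirror image: 80.8, 68.5 and 57.2 CPM in hypoxia-NaCl against 120, 140 and 119 CPM in normoxia-lactate (log2 fold change -0.88 ± 0.14, adjusted p = 0.0252). Its second comparison gave 149, 153 and 206 CPM in hypoxia-lactate and 76.2, 67.7 and 91.0 CPM in normoxia-NaCl. It missed the threshold without the block (log2 fold change 0.95 ± 0.19, adjusted p = 0.0551) and passed with it (1.07, edgeR adjusted p = 0.00544). Spp1, which encodes osteopontin, had 1062, 2870 and 506 CPM in hypoxia-NaCl and 1694, 3431 and 1734 CPM in normoxia-lactate, overlapping ranges in which each hypoxia-NaCl library was below its partner. It rose in the second comparison by a log2 fold change of 2.77 ± 0.44 (adjusted p = 0.0243).

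**Figure D5:**
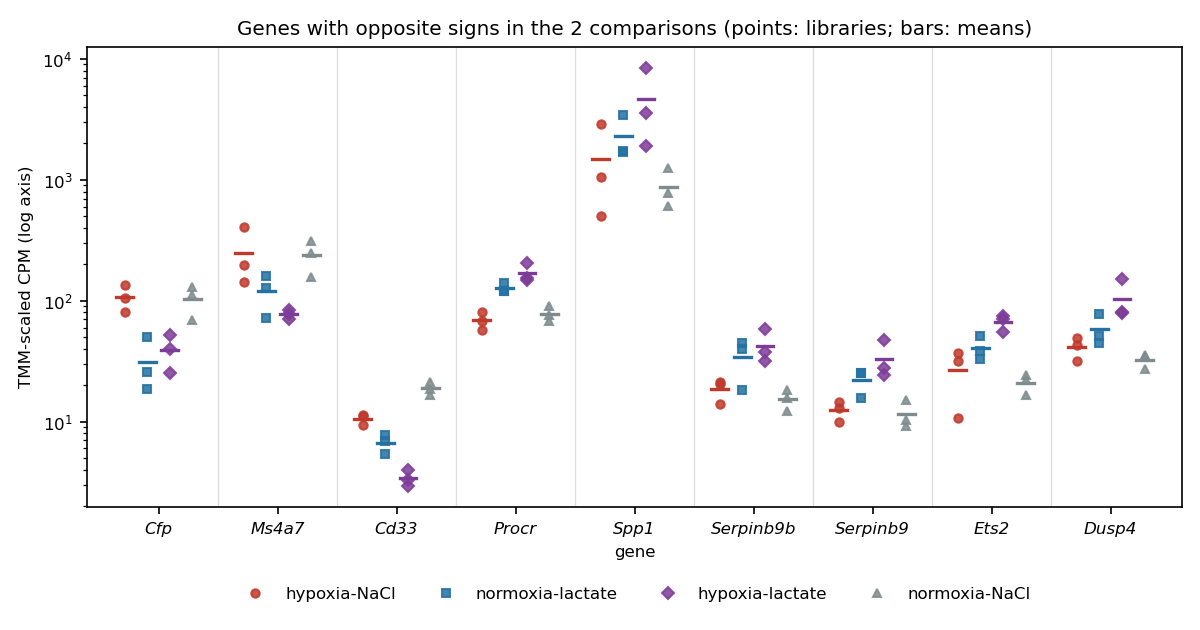
CPM (log axis) of 9 genes with opposite signs in the comparisons, in each library by group, with means as bars; the genes were chosen after their values were seen. For Cfp and Procr the lactate libraries lie on the same side of the NaCl libraries at both oxygen levels.

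Genes often read as macrophage activation states gave little in the first comparison. Arg1, arginase 1, was below the filter, with 8, 1 and 19 reads in hypoxia-NaCl and 0, 2 and 0 reads in normoxia-lactate; it had 0, 31 and 2 reads in hypoxia-lactate and 0 in each normoxia-NaCl library. Mrc1, the mannose receptor, had 7.62, 8.35 and 13.4 CPM in hypoxia-NaCl and 10.8, 11.1 and 13.7 CPM in normoxia-lactate, overlapping and not called (log2 fold change -0.28 ± 0.23, adjusted p = 0.585). It fell in the second comparison, with 3.1, 5.89 and 1.25 CPM in hypoxia-lactate against 21.8, 26.5 and 21.9 CPM in normoxia-NaCl (log2 fold change -2.38 ± 0.32, adjusted p = 0.0145). That test left out hypoxia-lactate 3, and with it Mrc1 did not pass (log2 fold change -2.77, edgeR adjusted p = 0.26). Both single-treatment groups thus lay between the extremes for this gene. Nos2, the inducible nitric oxide synthase, had 1.63, 0.559 and 0.900 CPM in hypoxia-NaCl, against 0.208, 0.138 and 0.111 CPM in normoxia-lactate, separate but low. It missed the threshold (log2 fold change 2.75 ± 0.55, adjusted p = 0.0557) and passed with the block (adjusted p = 0.00751, range over the alternatives 0.00173 to 1). In the list of alternative activation 0 of 15 tested genes passed in the first comparison, with or without the block.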

How the data were processed

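The study holds 12 macrophage libraries. The authors deposited unnormalised read counts for each Ensembl identifier, with a column for each library. BWA and HTSeq are the tools and mm9 the build, per the submitters' processing notes, with no versions. Annotation release and strandedness of the counting: not given in the sources used here, which makes overlapping, antisense and near-identical genes uncertain. The file's 5 counter lines belong to no gene and were removed. In the 6 libraries compared, reads aligned to several places were 8.34% to 12.9% of the total, reads outside genes 17.7% to 22.0%, unaligned reads 2.02% to 5.48%, ambiguous reads 0.369% to 0.442%, and low-quality reads 0%. Symbols from an identifier table covered 32897 of 37620 identifiers and 14109 of 14602 tested genes.

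Groups and library numbers came from the labels. TMM factors were computed once over the 12 libraries, and CPM are scaled with them. Each comparison was fitted on its own libraries with edgeR 4.0.16 in R 4.3.3 (filterByExpr, glmQLFit and glmQLFTest), p-values were adjusted by the Benjamini-Hochberg method across every tested gene, and 0.05 was the threshold. A standard error is the size of the log2 fold change divided by the root of the F statistic. The code was tested on simulated data. Hypoxia-lactate 3 was left out of the second comparison because earlier results of these data showed it apart. For the pairing check, each library's deviation from its group mean was correlated with that of its same-numbered partner. The values were 0.187, 0.461 and 0.478 in the first comparison, all above the limit of 0.1, so the label numbers were taken to pair those libraries. Pairs with different numbers reached at most 0.0272 there. Deviations from a group mean cancel within the group, so these lower values partly follow from the higher same-numbered ones and are no separate support. In the second, with 2 numbers shared, the values were 0.102 and 0.296, also above the limit. But hypoxia-lactate 1 correlated more with normoxia-NaCl 3 (0.163) than with its same-numbered partner (0.102), so the pairing was not taken as established.

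The comparison and the 25 gene lists were chosen with earlier results of these data known. Named genes are the 12 largest rises and falls above 5 CPM with no overlap, genes called in both comparisons, up to 3 called members each way per list, and the set Hif1a, Slc2a1, Nos2, Vegfa, Mrc1 and Arg1. Clone, predicted and pseudogene names were skipped, and any other gene was chosen after its values were seen. Alternatives were within-fit TMM, RLE and upper-quartile factors, no filter, a 5 CPM filter, DESeq2 1.42.0, limma-voom 3.58.1, the block, joint fits, and leaving out each library.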

Additional observations from a re-analysis of the deposited data

How the results depend on the processing

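The first comparison gave 99 rises and 35 falls, and the second 148 rises and 49 falls. Of the genes of the first, 47 rose in both, 0 rose then fell, 0 fell then rose and 1 fell in both, and these 4 counts are given below in that order. RLE and within-fit TMM factors kept every count within 1.5 times, and upper-quartile factors moved only the genes fallen in both, to 2. With no filter there were 247 rises and 160 falls, 351 rises and 271 falls in the second, and cross counts of 112, 4, 6 and 15. A filter at 5 CPM left 32 falls in the second, and limma-voom 29. DESeq2 called 340 rises and 300 falls, 468 rises and 468 falls in the second, and cross counts of 130, 9, 7 and 34.

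With the library number as a replicate block there were 633 rises and 600 falls, 500 rises and 495 falls in the second, where the pairing was not established, and cross counts of 168, 25, 12 and 67. Chosen after seeing the data, limma-voom with the block gave 732 and 704, 500 and 576, and 184, 30, 14 and 80. The fit of all libraries but hypoxia-lactate 3 gave 64 and 18, 548 and 496, with 2 genes fallen then risen and 4 fallen in both; with the block, also added later, 163 and 89, 1011 and 1087, and 115, 5, 7 and 23. The fit of all 12 libraries gave 16 rises and 0 falls, 16 risen in both and 0 fallen in both. With hypoxia-lactate 3 kept in, the second comparison had 12 rises and 0 falls, with 7 risen in both and 0 fallen in both.

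Leaving out each library in turn gave 5 to 97 rises and 1 to 28 falls, 9 to 313 rises and 0 to 148 falls in the second, and cross counts of 4 to 66, 0 to 0, 0 to 2 and 0 to 4; the lowest counts of the first comparison came without normoxia-lactate 1. In the second, leaving out hypoxia-lactate 1 or 2 leaves that group a single library, assumed to vary like normoxia-NaCl, and gave 9 and 12 rises with 0 falls; without normoxia-NaCl 1, 2 and 3 there were 313, 130 and 59 rises. Of the named genes, none changed sign in the first comparison under these alternatives. In the second, keeping hypoxia-lactate 3 in changed the sign of 4 of 96 risen and 7 of 34 fallen genes, among them Fam234b (log2 fold change -0.92 without it, 0.77 with it) and Palm (-0.11 and 1.42). Rises did not outnumber falls in the second under DESeq2 or in the added fits with the block. The cause of these shifts was not tested. DESeq2 with the block was not run. Arg1 was too shallow to test, and Nos2, near 1 CPM in hypoxia-NaCl, is limited by depth.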

Other observations

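Some genes not described above, all chosen after their values were seen, differed clearly at low or moderate levels. Mgarp, a mitochondrial protein gene, had 2.12, 1.68 and 3.73 CPM in hypoxia-NaCl, against 0.0624, 0.079 and 0.2 CPM in normoxia-lactate (edgeR log2 fold change 4.44 ± 0.54, adjusted p = 0.00755). It had 2.65, 2.96 and 2.49 CPM in hypoxia-lactate, against 0, 0 and 0.0782 CPM in normoxia-NaCl. Apln, which encodes the vascular peptide apelin, averaged 1.31 ± 0.751 CPM in hypoxia-NaCl and 0.0963 ± 0.0507 CPM in normoxia-lactate (SD, n = 3 each; edgeR adjusted p = 0.0345). Ighm, the immunoglobulin mu heavy chain, averaged 42.2 ± 13.4 CPM in hypoxia-NaCl and 15.8 ± 0.601 CPM in normoxia-lactate (edgeR log2 fold change 1.41 ± 0.20, adjusted p = 0.0151). The 4 B cell markers summed to 0.964 to 3.13 CPM in hypoxia-NaCl and 0.955 to 1.03 CPM in normoxia-lactate, with Ms4a1 at 0 in both groups; their part in the result was not tested. Pycard, the inflammasome adaptor ASC, had 57.1, 43.0 and 46.4 CPM in hypoxia-NaCl, against 74.6, 94.1 and 98.2 CPM in normoxia-lactate (edgeR log2 fold change -0.86 ± 0.15, adjusted p = 0.0328). C1ra, a complement protease, fell by 1.88 on the log2 scale (edgeR adjusted p = 0.00755).

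Some genes followed the library number in all 4 groups. H2-Aa, an MHC class II chain, had its lowest value in library 2 of each group, with 132 CPM in hypoxia-NaCl, 83.5 CPM in normoxia-lactate, 68.5 CPM in hypoxia-lactate and 103 CPM in normoxia-NaCl. The other libraries lay between 328 and 714 CPM. Spp1 had its highest value in library 2 of each group, with 2870, 3431, 8422 and 1253 CPM in the same order of groups, and Abca1, a cholesterol exporter, its lowest, with 56.5, 13.1, 36.4 and 18.5 CPM.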
